A study of Mus musculus with 6 samples.

Results

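Tissue inhibitors of metalloproteinases (Timp genes) and matrix metalloproteinases (Mmp genes) were followed in mouse prostate through 10 listed genes, Timp1 to Timp4, Mmp2, Mmp3, Mmp7, Mmp9, Mmp11 and Mmp14, out of 19938 genes that the arrays measured through a probe set with a single gene symbol. The probe set for a gene was chosen by the highest mean intensity over all 6 arrays, and since every one of the 10 genes had 1 probe set this left none aside. The genes themselves were listed with results of the same arrays already known, the fall of Timp4 among them. Their values are therefore a description, and the p-values come from a fit over all 28944 probe sets other than controls. The arrays compared 3 AR3 transgenic mice with 3 wild-type littermates, all 4 weeks old, with the whole dissected prostate of 1 mouse on each array. AR3 is a splice variant of the androgen receptor that lacks the ligand-binding domain. The promoter that drives the transgene, the number of founder lines and the strain are not stated in the labels, and the genotype labels were not checked against expression of the transgene.

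Matrix metalloproteinases are zinc-dependent proteases that cut collagens, basement membrane proteins and many proteins at the cell surface. Most are secreted or membrane-bound as inactive precursors, and activation removes a propeptide. Timp proteins bind the active site of these proteases and block it, so the local balance of protease and inhibitor sets how far matrix is cut. In the developing prostate, epithelial buds branch into stroma across a basement membrane that such proteases remodel.

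Timp4 fell in transgenic prostates, and it was the only one of the 10 genes past the adjusted threshold of 0.05 (limma), where 1.64% of all 19938 genes passed in either direction, 0.456% as lower and 1.18% as higher. Mmp14, the membrane-anchored collagenase, lay higher in each transgenic mouse than in any wild-type mouse but just missed the threshold. For the other 8 genes the genotypes overlapped. The smallest differences were those of Timp1 and Mmp7. The intensities of Mmp3 and Mmp11 lay above background on no array. Among all genes, 19.1% showed no overlap, and 8.61% lay without overlap below wild-type and 10.5% above it, against 1 of 10 each here. The 10 genes had a median log2 change of 0.159, against 0.0131 over all genes, and 8 of the 10 had a positive change, as did 53.9% of all genes.

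**Figure D1:**
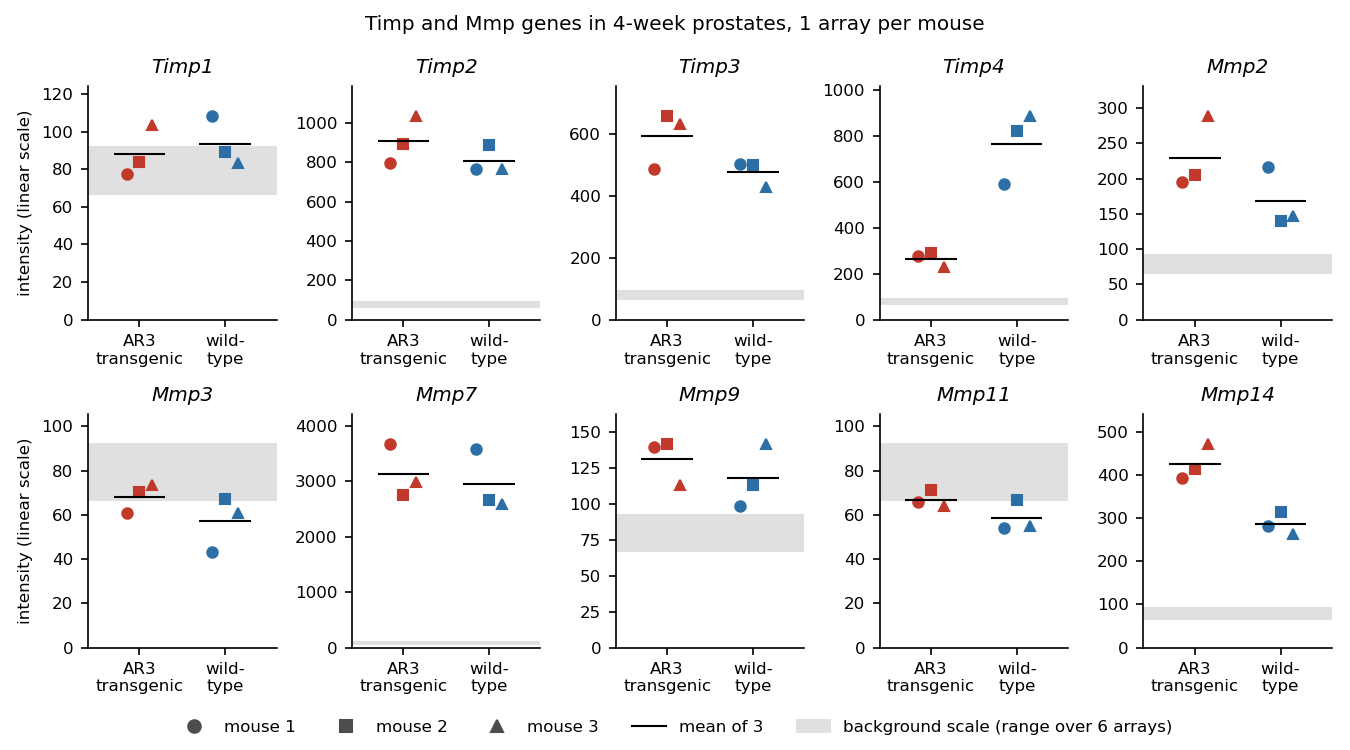
Intensity of the 10 genes (linear scale, y axis from 0) on each array, 3 AR3 transgenic mice at left and 3 wild-type mice at right in each panel, with a bar at the mean of 3. The grey band is the background scale, 66.9 to 91.9 over the 6 arrays. Timp4 lies between 227.7 and 288.5 in transgenic mice, below all wild-type mice, and Mmp14 lies above all wild-type mice in every transgenic mouse.

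The arrays had median intensities between 94.5 and 110.8. No detection calls were used, and the 95th percentile of 1035 olfactory receptor probe sets on the same array served as the background scale, at 66.9 to 91.9. Of 10 measured luminal epithelial markers and 10 smooth muscle markers, all lay above it on all 6 arrays. The arrays stood apart in seminal vesicle genes. The mean log2(intensity + 16) of 7 such genes was 7.50, 6.52 and 8.74 in transgenic mice 1, 2 and 3. In wild-type mice 1, 2 and 3 it was 8.57, 6.03 and 6.11. Results are therefore also given without transgenic mouse 3 and wild-type mouse 1, a choice made after the values were seen. This does not even out the genotypes, since the remaining transgenic means still lie above the remaining wild-type means. The 7 genes also differed in direction. Of them 3 had a positive change, and Svs3a, named after its values were seen, was called lower (log2 change −1.43, adjusted p 0.0192, limma).

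The upstream sequences of 4 of the genes are shown. Timp4 and Mmp14 are the genes without overlap between genotypes, and Mmp3 and Mmp7 are those with a match to the AP-1 motif. Other motifs were shared by other genes. The 250 bases before the gene start are from RefSeq, build GRCm38.p6. Upstream sequences were at hand for 8 of the 10 genes, and not for Mmp2 and Mmp9. Sequences are written 5′ to 3′ on the gene's strand. Capitals mark matches, on either strand, to 4 motifs: the AP-1 motif TGANTCA, the androgen receptor half-site AGAACA, the CCAAT box CCAAT and the GC box GGGCGG.
Timp4 (chr6:115252206-115252455, minus strand): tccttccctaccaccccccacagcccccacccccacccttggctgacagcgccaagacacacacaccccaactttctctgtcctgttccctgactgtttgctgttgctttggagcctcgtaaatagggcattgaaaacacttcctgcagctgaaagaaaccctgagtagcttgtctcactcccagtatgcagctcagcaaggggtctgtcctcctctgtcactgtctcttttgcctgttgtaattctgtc
Mmp14 (chr14:54431348-54431597, plus strand): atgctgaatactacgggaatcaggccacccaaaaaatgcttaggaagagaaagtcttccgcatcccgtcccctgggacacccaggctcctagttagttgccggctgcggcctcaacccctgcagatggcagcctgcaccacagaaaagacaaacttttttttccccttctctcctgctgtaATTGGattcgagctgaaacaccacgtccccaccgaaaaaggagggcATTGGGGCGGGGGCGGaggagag
Mmp3 (chr9:7445572-7445821, plus strand): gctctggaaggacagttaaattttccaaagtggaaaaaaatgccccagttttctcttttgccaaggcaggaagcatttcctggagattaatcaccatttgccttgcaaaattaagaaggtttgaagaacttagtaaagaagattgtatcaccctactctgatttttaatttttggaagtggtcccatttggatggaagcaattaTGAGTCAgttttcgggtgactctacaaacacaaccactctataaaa
Mmp7 (chr9:7691840-7692089, plus strand): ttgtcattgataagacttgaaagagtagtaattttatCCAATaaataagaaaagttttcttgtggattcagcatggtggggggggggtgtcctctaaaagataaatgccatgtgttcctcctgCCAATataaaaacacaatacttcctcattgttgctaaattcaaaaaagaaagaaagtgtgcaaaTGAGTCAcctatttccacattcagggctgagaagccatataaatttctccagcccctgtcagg

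The Timp4 window holds none of these 4 letter strings. The Mmp14 window holds the CCAAT box as ATTGG at 69 and 23 bases before the gene start and the GC box GGGCGG at 19 and 13 bases, and its nearer ATTGG shares 1 base with the GC box that follows. Mmp3 and Mmp7 hold TGAGTCA, an AP-1 match, at 46 and 63 bases before the start. The AP-1 motif occurred in 6.75% of 32851 upstream windows in the table, the half-site in 16.1%, the CCAAT box in 33.8% and the GC box in 32.7%. Among the 8 genes with a window, 2 held the AP-1 motif, 2 the half-site, 4 the CCAAT box and 5 the GC box. The half-site matches were in Mmp11 and in a second window of Mmp7, which is not printed. That second window begins 1 base after the first window's gene start and so lies inside the gene as placed here. Before the gene start as placed here, only Mmp11 held the half-site. A match is a description of letters, and no binding was measured here.

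Timp4, the fourth inhibitor of the family, has its gene on chromosome 6 (chr6:115244444-115252205, GRCm38.p6), inside the synapsin gene Syn2. It had intensities of 278.2, 288.5 and 227.7 in transgenic mice 1, 2 and 3, against 590.4, 820.4 and 885.0 in wild-type mice 1, 2 and 3. All transgenic values lay below all wild-type values, and the lowest wild-type value was that of mouse 1. The means were 264.8 ± 32.5 in transgenic and 765.2 ± 155 in wild-type prostates (SD, n = 3 each). The log2 change was −1.46 ± 0.16 (SE; 95% interval −1.84 to −1.09), a 2.76-fold lower level on the log2(intensity + 16) scale, with an adjusted p of 0.00381 (limma). By log2 change it was the 18th lowest of 28944 probe sets, and 0.331% of genes had a larger absolute change. It kept its call in each of 15 other settings, with changes between −1.64 and −1.32 and adjusted p up to 0.0288, and without transgenic mouse 3 and wild-type mouse 1 its change was −1.54 with an adjusted p of 0.00308.

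Neither the host gene nor the neighbours of Timp4 passed the threshold. Syn2, which codes for a synaptic vesicle protein, had 110.2, 115.9 and 105.8 in transgenic mice and 73.2, 90.7 and 123.0 in wild-type mice, with a log2 change of 0.21 ± 0.15 (SE). Of the 8 protein-coding genes nearest to Timp4, Syn2 among them, 6 were measured, 0 were called and their log2 changes ran from −0.07 to 0.21. Timp1 and Timp3 also lie inside synapsin genes, Syn1 and Syn3. Syn1 had a log2 change of 0.19 ± 0.13 and Syn3 of −0.01 ± 0.08 (SE), and neither was called.

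Timp4 is known from fat, heart and skeletal muscle, so markers of other tissues in the dissection were set beside it. Of 11 adipocyte markers 0 were called, and their summed intensity ran from 1053 to 1125 in transgenic and from 908.1 to 1147 in wild-type mice. Of 11 skeletal muscle markers 0 were called, with sums of 2391 to 2867 in transgenic and 2285 to 2928 in wild-type mice, most of it from Acta1, the skeletal actin. The median log2 change of this list was −0.109, and 3 of the 11 had a positive change. Myh1 (−0.23), Myh4 (−0.29) and Tnnt3 (−0.29), a pair of fast-fibre myosins and a troponin named after their values were seen, lay below all wild-type mice in every transgenic mouse, as did 8.61% of all genes. Myh1 was above background on 1 of 6 arrays, Myh4 on 2 and Tnnt3 on all 6, so both myosins lay mostly at background. Of the 11 adipocyte markers, 5 lay above background on all 6 arrays and 4 on none. For the 11 skeletal muscle markers these counts were 5 and 2. The part of fat or muscle in the fall of Timp4 was not tested. In whole tissue, fewer cells of a type and less RNA per cell cannot be told apart.

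The other 3 inhibitors did not pass the threshold. Timp2, which besides blocking proteases helps the product of Mmp14 to activate that of Mmp2, had 799.1, 893.7 and 1034 in transgenic mice and 767.4, 891.0 and 768.4 in wild-type mice. Transgenic mouse 3 had the highest value, and the genotypes overlapped. The log2 change was 0.16 ± 0.11 (SE; 95% interval −0.10 to 0.43).

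Timp3, the inhibitor that binds to matrix and also blocks several Adam and Adamts proteases, had 488.6, 657.0 and 632.3 in transgenic mice and 503.9, 499.6 and 427.6 in wild-type mice. Transgenic mouse 1 lay within the wild-type range and the other two lay above it. The log2 change was 0.30 ± 0.13 (SE; 95% interval −0.0013 to 0.59) with an adjusted p of 0.411 (limma). Timp1, a soluble inhibitor induced by cytokines and growth factors, had 77.6, 83.7 and 103.7 in transgenic mice and 108.0, 89.0 and 83.2 in wild-type mice. It lay above the background scale on 4 of 6 arrays, with a log2 change of −0.07 ± 0.12 (SE) whose sign turned without transgenic mouse 1 or wild-type mouse 1. The 95% intervals of Timp1, Timp2 and Timp3 all lay above the upper end of that of Timp4, −1.09. The difference between the inhibitors was not itself tested.

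Mmp14, the membrane protease that cuts fibrillar collagen and activates the precursor of Mmp2, lies on chromosome 14 (chr14:54431598-54442456, GRCm38.p6). Its intensities were 393.6, 415.4 and 472.0 in transgenic mice and 282.8, 315.6 and 263.8 in wild-type mice. The genotypes did not overlap. The means were 427.0 ± 40.4 and 287.4 ± 26.2 (SD, n = 3 each) in transgenic and wild-type prostates, with a log2 change of 0.55 ± 0.10 (SE; 95% interval 0.31 to 0.78), an unadjusted p of 0.000739 in limma and an adjusted p of 0.0502. Unadjusted, 12.2% of all genes had a p under 0.05, and of the 10 genes these were Timp4 and Mmp14. Mmp14 passed the adjusted threshold after quantile normalization (0.0483), with an added constant of 64 (0.0174), without the dimmest 40% of probe sets (0.0289), with robust variances and an intensity trend (0.00717) and with array weights (0.0299). The array weights were 2.77 for wild-type mouse 2, against 0.37 and 0.485 for wild-type mice 1 and 3. For transgenic mice they were 1.09 to 1.45. Mmp14 missed the threshold after median centring (0.0558), with an added constant of 1 (0.0875) and with the replicate block (0.183). It also missed without any single array, at 0.0844 to 0.223, and without transgenic mouse 3 and wild-type mouse 1, at 0.253 with a log2 change of 0.46.

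Mmp2, the gelatinase that stromal cells secrete and that cuts basement membrane collagen, had 194.7, 205.2 and 287.9 in transgenic mice and 216.9, 140.5 and 147.0 in wild-type mice. Wild-type mouse 1 lay above transgenic mice 1 and 2, and transgenic mouse 3 was the highest of all. The log2 change was 0.42 ± 0.19 (SE; 95% interval −0.03 to 0.86) with an adjusted p of 0.439 (limma), and it missed the threshold in all 15 other settings. Without single arrays the change ran from 0.25 (adjusted p 0.805, without transgenic mouse 3) to 0.60 (0.148, without wild-type mouse 1).

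Fibroblast markers lay in the same order as Mmp2 on the 4 highest arrays. Their mean log2 level over 12 genes was 7.44, 7.50 and 7.81 in transgenic mice 1, 2 and 3 and 7.56, 7.02 and 7.01 in wild-type mice 1, 2 and 3. All 12 had a positive change, 0 were called and 7 lay above background on all 6 arrays. Their summed intensity ran from 2278 to 2957 in transgenic and from 1598 to 2477 in wild-type mice. Of 12 myeloid markers 0 were called and 11 had a positive change. Over all genes 53.9% had a positive change. Only 3 of the 12 myeloid markers were above background on all 6 arrays, and 5 were above it on none. Their sums, of 1217 to 1372 in transgenic and 964.6 to 1127 in wild-type mice, do not overlap. Much of the distance between these sums comes from Lyz2, C1qa and C1qb, named after their values were seen. Their means were 166.7, 206.1 and 104.2 in transgenic mice and 101.7, 150.4 and 58.3 in wild-type mice. For Lyz2 and C1qa the genotypes overlapped. Of 10 endothelial markers 1 was called, the adhesion gene Cdh5 (log2 change 0.93, named after its values were seen), where 1.64% of all genes were called. The sums of the 10 were 1327 to 1357 in transgenic and 1083 to 1234 in wild-type mice. Much of that gap is Cdh5 itself, with means of 184.7 in transgenic and 89.7 in wild-type mice. The list's median log2 change was 0.087. The part of these cell types in the values of Mmp14 and Mmp2 was not tested.

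**Figure D2:**
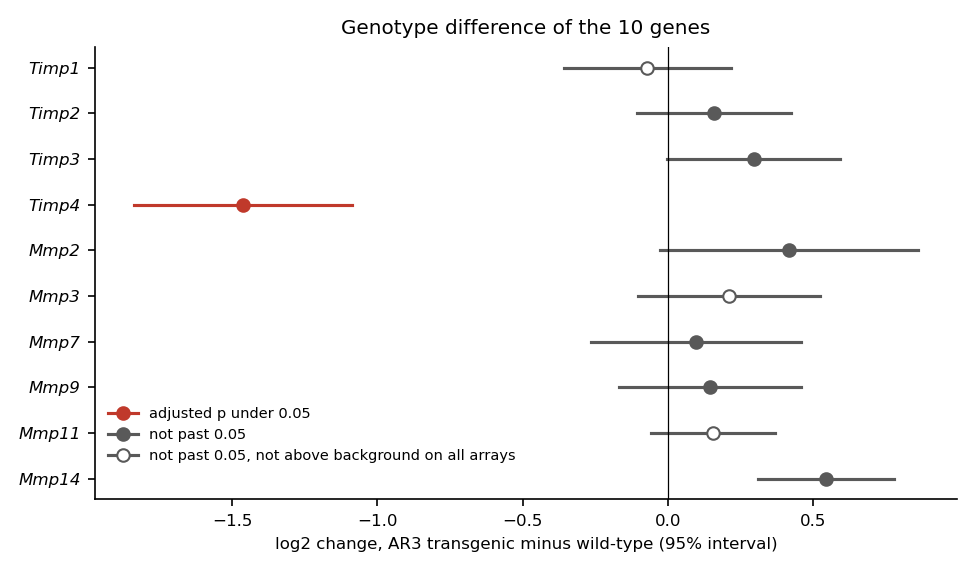
Log2 change of each of the 10 genes, AR3 transgenic minus wild-type, as a point with its 95% interval from limma; open points are genes not above the background scale on all 6 arrays. The intervals of Timp4 (−1.84 to −1.09) and Mmp14 (0.31 to 0.78) leave out 0, and those of the other 8 include it.

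Mmp7, matrilysin, is a small epithelial protease without the hemopexin domain of most of its family. It lay far above background in every mouse, at 3667, 2758 and 2982 in transgenic mice and 3582, 2653 and 2589 in wild-type mice. Mouse 1 of each genotype was the highest of its group, and the log2 change was 0.10 ± 0.16 (SE; 95% interval −0.26 to 0.46), with a turned sign, −0.02, without transgenic mouse 1. Its gene closes a run of 10 Mmp genes on chromosome 9 (chr9:7272514-7699585, GRCm38.p6). Of these 10 genes, 7 were above background on no array, Mmp7 and Mmp12, which was named after its values were seen, were above it on all 6, and 0 were called.

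Mmp9, the second gelatinase, which neutrophils and macrophages store or secrete, had 139.1, 141.2 and 113.0 in transgenic mice and 98.6, 112.9 and 141.2 in wild-type mice. The genotypes overlapped, with a log2 change of 0.15 ± 0.14 (SE; 95% interval −0.17 to 0.46). Of 10 neutrophil markers, 0 were above background on all 6 arrays and 7 were above it on none. Mmp3, stromelysin, which cuts proteoglycans and activates other family members, had 60.9 to 73.3 in transgenic mice and 43.4 to 67.3 in wild-type mice. Mmp11, a stromal protease cleaved by furin-like convertases before it is secreted, had 63.9 to 71.2 in transgenic mice and 54.0 to 66.7 in wild-type mice. Both were above background on 0 of 6 arrays, so their log2 changes of 0.21 ± 0.13 and 0.16 ± 0.09 (SE) compare values at background.

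Of the wider protease system, 107 genes were measured on 4 lists, and 4 were called, 3 higher and 1 lower, where 1.64% of all genes were called. Of 16 other matrix metalloproteinases, Mmp21, known for its part in left-right patterning of the embryo, was lower and 15 were not called. It had 48.1, 59.5 and 51.2 in transgenic mice and 83.0, 100.5 and 103.8 in wild-type mice, and lay above background on all wild-type arrays and on no transgenic array. The fall is therefore given as a bound, at least 1.17-fold lower in transgenic mice. The bound sets the mean log2 intensity of the brighter genotype against, on each array of the other, the background scale or the gene's own value, whichever is higher. It is taken without the added constant of 16. The log2 change of the measured values, with that constant, was −0.70, adjusted p 0.0192 (limma). The members of this list with the next smallest p, Mmp27 and Mmp10, had log2 changes of −0.26 and −0.35 and were not called. The median of the list was 0.016, and 9 of the 16 were above background on no array.

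Of 27 Adam and Adamts proteases, relatives of the matrix metalloproteinases that shed surface proteins or cut proteoglycans, Adam15 was higher and 26 were not called. Adam15 had 607.9, 591.6 and 586.0 in transgenic mice and 417.1, 422.5 and 443.6 in wild-type mice. The groups did not overlap, and the log2 change was 0.46 ± 0.07 (SE) with an adjusted p of 0.0206 (limma). Adamts3, which processes procollagen, and Adamts8 had log2 changes of 0.40 and 0.39 and were not called. Adamts3 was called without wild-type mouse 3 (adjusted p 0.0479, limma) and with array weights (0.0256). The list's median was 0.027.

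Of 30 activators, inhibitors and receptors, Pcsk5 and Spock1 were higher and 28 were not called. Pcsk5, a furin-like convertase that cuts precursor proteins, had 209.3, 209.1 and 234.6 in transgenic mice and 63.9, 66.2 and 80.9 in wild-type mice. No wild-type value was above its array's background, so the rise is given as a bound, at least 2.79-fold higher in transgenic mice. The measured values differed by 1.44 on the log2 scale, with an adjusted p of 0.000278 (limma). Spock1, a secreted proteoglycan of the testican family, had 169.2, 162.7 and 178.7 in transgenic mice and 99.3, 108.4 and 98.0 in wild-type mice. Its log2 change was 0.66 ± 0.08 (SE), adjusted p 0.00542 (limma). Lrp1, the endocytic receptor that clears proteases and their inhibitors, had a log2 change of 0.42 and was not called.

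Of 34 matrix substrates, 0 were called by limma at the adjusted threshold, while 7 had an unadjusted p under 0.05, 6 higher and 1 lower. Over all genes, 12.2% had an unadjusted p under 0.05. The changes of 30 of the 34 were positive, as were 53.9% over all genes, and the list's median was 0.171. The fibroblast markers, all 12 with a positive change, had a median of 0.351, and the summed intensity of both lists was highest in transgenic mouse 3. Their part in the substrate values was not tested. The genes with the smallest p were the basement membrane collagen Col4a6 (log2 change −0.29), the proteoglycan Vcan (0.34) and the basement membrane linker Nid1 (0.58), none of them called. With array weights Nid1 was called, at an adjusted p of 0.0427 (limma). The count of 4 called genes in the 4 lists fell to 2, Pcsk5 and Spock1, without transgenic mouse 1, transgenic mouse 3 or wild-type mouse 2. Adam15 missed the threshold without any 1 transgenic mouse or wild-type mouse 2 (adjusted p 0.107 to 0.115, limma). Mmp21 missed it without transgenic mouse 1, transgenic mouse 3, wild-type mouse 2 or wild-type mouse 3 (0.0548 to 0.114). Without both transgenic mouse 3 and wild-type mouse 1 the count was 1, Pcsk5.

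**Figure D3:**
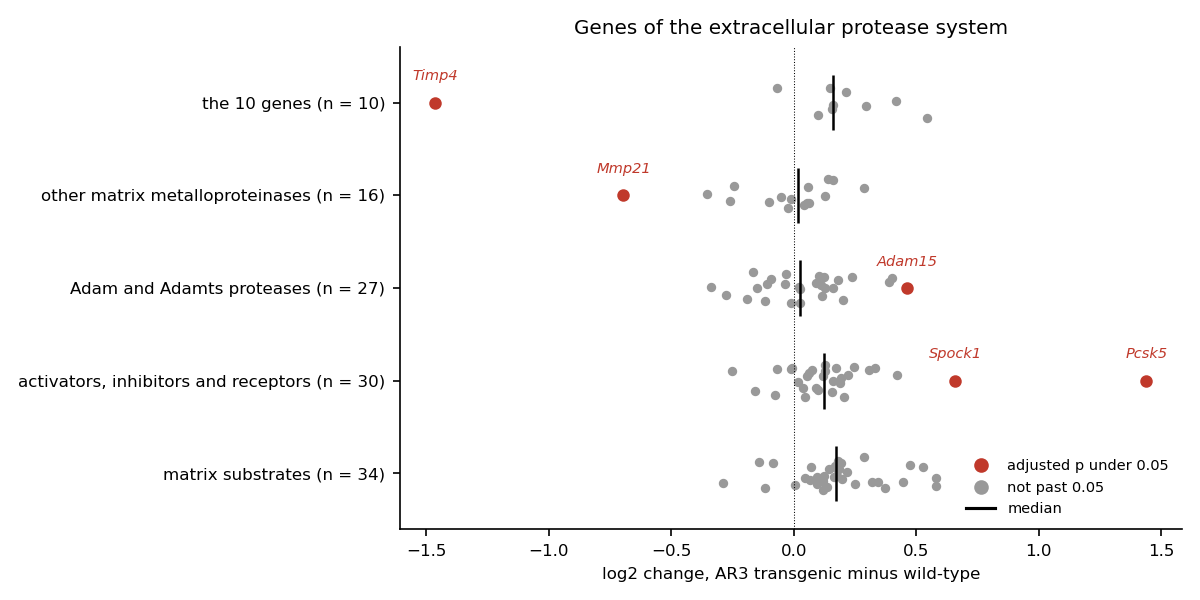
Log2 change, AR3 transgenic minus wild-type, of each measured gene of the 10 and of 4 lists of the protease system (vertical scatter within a list has no meaning), with a bar at the list's median. Called genes are named: Timp4 at −1.46, Mmp21 at −0.70, Adam15 at 0.46, Spock1 at 0.66 and Pcsk5 at 1.44, as measured; for Mmp21 and Pcsk5 the dimmer genotype was not above background.

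The genes whose level over the 6 arrays ran most like that of Timp4, Mmp14 and Mmp2 were found by the root mean square distance between log2(intensity + 16) profiles, each centred on its mean over the arrays, among 9977 genes with a mean log2 value of at least 7. Their changes follow from that choice and are given with no test. Nearest to Timp4 were the lipid kinase Pik3c2g (distance 0.05), the monocarboxylate transporter Slc5a8 (0.09), the prostaglandin receptor Ptgdr (0.13) and the carbonyl reductase Cbr2 (0.13). Pik3c2g had 94.2, 91.3 and 73.5 in transgenic mice and 215.6, 279.6 and 293.1 in wild-type mice. As with Timp4, transgenic mouse 3 was the lowest of all and wild-type mouse 1 the lowest of its genotype.

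Nearest to Mmp14 were Irf7, the regulator of interferon genes (0.03), the glutamate dehydrogenase Glud1 (0.04), ceruloplasmin, Cp (0.04), and the interferon-induced membrane gene Ifitm3 (0.05). Irf7 had 145.6, 162.5 and 174.3 in transgenic mice and 107.0, 115.0 and 95.8 in wild-type mice, and wild-type mouse 3 was the lowest for both genes. Nearest to Mmp2 were Serpinf1 (0.06), Islr (0.06), Abca8a (0.06) and Cd34 (0.07). The short list of 12 fibroblast markers did not include them, and which cells express them was not tested. Serpinf1, a secreted factor that inhibits vessel growth, had 173.6, 182.9 and 240.4 in transgenic mice and 178.2, 111.6 and 117.1 in wild-type mice, so that wild-type mouse 1 lay apart from the other two as it did for Mmp2.

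**Figure D4:**
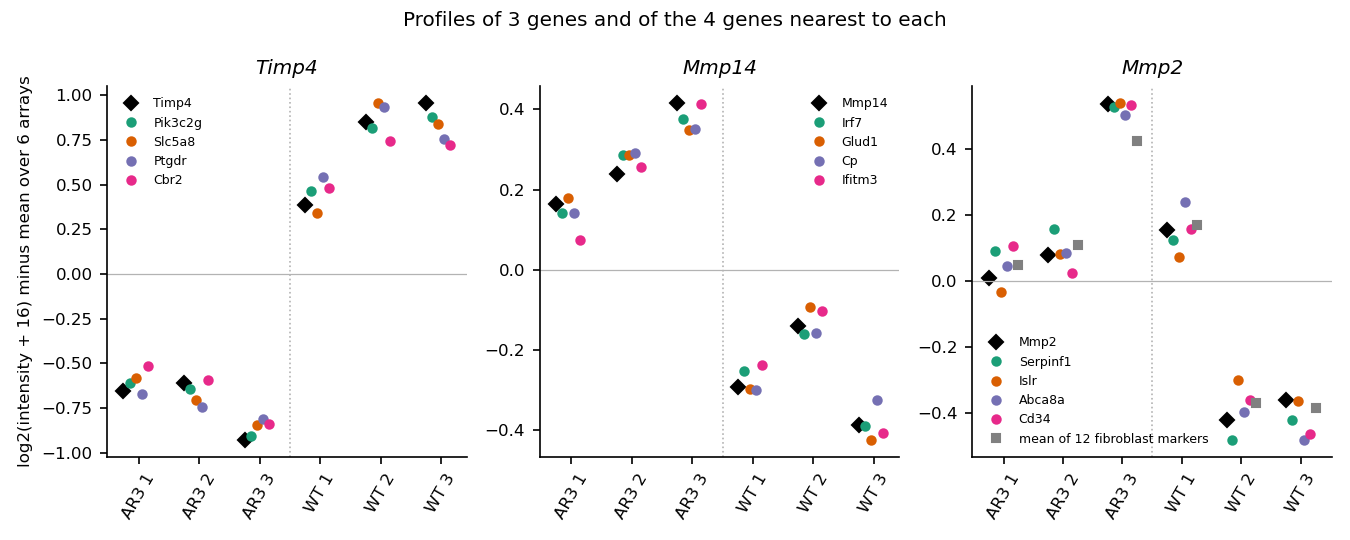
Log2(intensity + 16) minus its mean over the 6 arrays for Timp4, Mmp14 and Mmp2 (diamonds) and for the 4 genes nearest to each (circles), on the 3 AR3 transgenic arrays at left and the 3 wild-type (WT) arrays at right of each panel. Grey squares in the Mmp2 panel are the mean of 12 fibroblast markers; the genotypes separate for Timp4 and Mmp14 and overlap for Mmp2, where wild-type mouse 1 lies with the transgenic mice.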

How the data were processed

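Per the labels' protocols, total RNA of dissected prostates was extracted on columns, treated with DNase and biotinylated with a whole-transcript labelling kit. The deposited table holds 1 intensity per probe set and array on a linear scale. Neither the labels nor the table state the background correction, summarisation, normalization or software. The 95th percentile of intensity ran from 1382 to 1413 over the arrays, and no further normalization was applied in the main fit, although medians ran from 94.5 to 110.8. Of 35512 probe sets, 6568 control probe sets, identified by their number range, were left out. Symbols came from the platform annotation: 21789 tested probe sets had 1 symbol, 1621 several and 5534 none. Log2(intensity + 16) was tested with limma 3.58.1 in R 4.3.3, 3 against 3 arrays, two-sided, with Benjamini-Hochberg adjustment over 28944 probe sets. The added constant understates changes of dim genes. An exact permutation test of 1 gene cannot go below 0.1 here and was not used. The number of arrays limits precision. On simulated data for 28944 probe sets the fit recovered 78 of 100 changes of size 1 and 99 of 100 of size 2 (log2). The simulation used independent normal noise with SDs shuffled over probe sets. It therefore held no shared differences between arrays, such as those in seminal vesicle genes, and its rates may not hold for these arrays.

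The members and lists were chosen with earlier results of these data known. The genes named were the 10 members, Syn1, Syn2 and Syn3, the genes of each of 4 protease lists that were called, with those of smallest p up to 3, and the 4 genes nearest to Timp4 and to the 2 other members with the largest changes.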

Additional observations from a re-analysis of the deposited data

How the results depend on the processing

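Over 15 alternatives Timp4 stayed the 1 called gene of the 10, or 1 of 2. Mmp14 was the second called gene, for a count of 2, after quantile normalization, with an added constant of 64, without the dimmest 40% of probe sets, with robust variances and an intensity trend, and with array weights. Without any single array the count of called genes among the 10 was 1. The count of probe sets called, 425 (305 higher and 120 lower), was 678 with an intensity trend and robust variances, 1202 with array weights, 250 with the replicate block, 237 without transgenic mouse 3 and wild-type mouse 1, and 234 to 519 without single arrays. Among single arrays left out, it moved by over 1.5 times, to 254, 248 and 234, without wild-type mouse 2, transgenic mouse 2 or transgenic mouse 3. Median centring gave 314 higher and 264 lower. With array weights the wild-type group rested mostly on mouse 2 (weight 2.77), which limits the calls of that setting. In the 4 protease lists, 4 called genes became 2 with the replicate block (Mmp21 and Pcsk5; adjusted p 0.136 for Adam15 and 0.0549 for Spock1), 1 without transgenic mouse 3 and wild-type mouse 1, and 2 to 4 without single arrays. The cause of these shifts was not tested. Uncalled changes that turned sign were those of Timp1, at 0.0043 without transgenic mouse 1 and 0.0236 without wild-type mouse 1 (−0.1732 to 0.0236 without single arrays), and of Mmp7, at −0.0202 without transgenic mouse 1 (−0.0202 to 0.2469). The labels number the mice but state no pairing, and the main fit used none. Deviations of equal-numbered mice correlated at −0.04, 0.05 and −0.16. The largest correlation was 0.18, for transgenic mouse 3 and wild-type mouse 1. With 3 mice per genotype such values cannot settle whether the samples are paired. The replicate block left Timp4 called (adjusted p 0.0241, limma) and Mmp14 not (0.183). Mean values per gene over several probe sets were not run, since each of the 10 genes has 1 probe set. Signals of Mmp3 and Mmp11 lie at background, which limits any statement on them.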
